A study of Mus musculus with 20 samples.

Results

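Ins1, Ins2 and Iapp, the genes of the hormones that beta cells release together, were taken by their symbols from the 4 deposited count tables of a Cpeb1 knockout study in mouse islets. The 3 genes were measured in all 20 libraries. They were 3 of the 55416 genes listed for the whole-body line, and of the 16612 (females) and 16767 (males) listed for the beta-cell line. Ins1 and Ins2 are the insulin genes of the mouse: both encode a preproinsulin that is cut to insulin and C-peptide. Iapp encodes amylin (islet amyloid polypeptide), a hormone packed into the same secretory granules and known for slowing stomach emptying and for acting on the brain. In mouse islets these mRNAs are among the most abundant of all, and proinsulin and pro-amylin are cut by the same convertases.

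RNA was isolated from islets of C57BL/6J mice, poly(A)-selected and sequenced. The whole-body line compared Cpeb1 KO/KO mice with Cpeb1 +/+ mice, with 3 females and 3 males of each genotype, aged 98 to 188 days (females) and 111 to 155 days (males), in batch 1. The beta-cell line compared Cpeb1 flx/flx; Ins1-Cre/+ mice with Cpeb1 +/+; Ins1-Cre/+ mice, with 2 females and 2 males of each genotype, aged 107 to 108 days (females) and 80 to 111 days (males), in batch 2. Every mouse of the beta-cell line, control or knockout, carried Ins1-Cre, a recombinase driven from the Ins1 promoter, and no mouse of the whole-body line was labelled with it. CPEB1 is an RNA-binding protein that binds a U-rich element in the 3′ UTR of mRNAs and sets the length of their poly(A) tail. The labels call the libraries of a group biological replicates.

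Libraries of the whole-body line held 41756830 to 112320368 counts, and those of the beta-cell line 40124922 to 101458838. One whole-body library, control female 1, differed from the rest: Rn18s, a ribosomal RNA gene, took 60.5% of its counts and Lars2 10.3%, against 0.962% to 7.49% for Rn18s in the other 11 libraries. Results that this library moves are given with and without it. Cpeb1 itself lay at 24.99 to 38.0 CPM (the depth-scaled count unit, here after TMM scaling) in the knockout libraries of the whole-body line and at 38.3 to 65.3 CPM in its controls, a log2 fold change of -0.93 that did not pass the test (edgeR quasi-likelihood test, Benjamini-Hochberg adjusted p = 0.128). The beta-cell line had 27.7 to 30.3 CPM against 50.8 to 69.2 CPM, and Cpeb1 fell by 1.06 on the log2 scale (edgeR adjusted p = 0.0224). The beta cell markers Slc2a2, Ucn3, G6pc2, Mafa, Nkx6-1 and Pdx1 were detected in all 20 libraries. So were the 10 listed acinar genes of the surrounding exocrine pancreas. The acinar genes summed to 261 to 958 CPM in whole-body knockout males and to 3034 to 9287 CPM in control males, without overlap. Whole-body females overlapped, at 857 to 6510 CPM in knockouts and 1554 to 39021 CPM in controls. Beta-cell knockout females lay above controls, at 24429 to 51129 against 19279 to 23765 CPM. Beta-cell males overlapped (3650 to 74335 CPM in knockouts, 31521 to 32503 CPM in controls).

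The coding sequences of the insulin genes are shown first because their likeness bears on every value of Ins1 and Ins2: reads that fit both genes are divided between them by the counting program. The first 294 of 327 coding bases of Ins1 and 300 of 333 of Ins2 are given 5′ to 3′ from the start codon, on build GRCm38, with the bases that differ from the other gene in capitals. Ins1 was annotated on chromosome 19 (52264297 to 52265476, plus strand) with 1 transcript of 2 exons, and Ins2 on chromosome 7 (142678656 to 142743381, minus strand) with 9 transcripts.
Ins1: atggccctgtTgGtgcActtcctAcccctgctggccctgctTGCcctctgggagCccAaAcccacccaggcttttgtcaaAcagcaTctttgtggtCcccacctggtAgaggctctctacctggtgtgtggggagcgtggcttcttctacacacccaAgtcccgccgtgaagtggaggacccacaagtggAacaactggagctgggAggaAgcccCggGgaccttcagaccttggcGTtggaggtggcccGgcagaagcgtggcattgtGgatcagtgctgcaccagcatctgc
Ins2: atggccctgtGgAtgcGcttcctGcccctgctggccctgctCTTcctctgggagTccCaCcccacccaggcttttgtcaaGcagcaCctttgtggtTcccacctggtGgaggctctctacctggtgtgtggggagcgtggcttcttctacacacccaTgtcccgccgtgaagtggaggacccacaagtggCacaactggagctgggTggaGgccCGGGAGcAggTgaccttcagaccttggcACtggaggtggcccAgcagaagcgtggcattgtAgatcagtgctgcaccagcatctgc

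The 327 aligned coding bases were identical at 302 positions (92.4%), Ins2 held 6 further bases, and the longest identical run was 56 bases. Of the 50-base windows of the Ins1 transcript, 0.691% occurred without a mismatch in an Ins2 transcript, and none of its 75-base windows did. Of its 25-base windows, 6.26% did. Within the coding sequence alone the shares were 2.52% at 50 bases and 21.5% at 25 bases. The read length is not given in the sources used here, so how many reads could have been split is not known, and the separate levels of Ins1 and Ins2 carry that uncertainty. Iapp was annotated on chromosome 6 (142298423 to 142303961, plus strand), wholly inside Slco1a5 on the opposite strand. Slco1a5 received 17 to 462 counts in the whole-body libraries and 41 to 193 in the beta-cell libraries, against at least 171134 counts of Iapp.

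Together the 3 genes took 25.5% ± 6.76 (SD, n = 12) of all counts in the whole-body line and 23.3% ± 3.85 (SD, n = 8) in the beta-cell line. In the whole-body line Ins2 took 16.2% ± 4.39, Ins1 7.47% ± 1.95 and Iapp 1.84% ± 0.503 of the counts (SD, n = 12). The same shares in the beta-cell line were 17.5% ± 3.05, 4.10% ± 0.670 and 1.72% ± 0.211 (SD, n = 8). Control female 1 of the whole-body line had the lowest share of the 3 genes, 5.73%, and the other 19 libraries lay between 19.1% and 30.9%. Without the counts of Rn18s and Lars2 its share was 19.7%. Counting error was small beside these spreads: the widest 95% Wilson interval of a share spanned 0.0217 percentage points, and it covers counting error only.

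Per kilobase of exon, Ins2 stood highest, Ins1 next and Iapp lowest in both lines. The TMM-scaled CPM per kilobase in the whole-body line was 116837 ± 22012 for Ins2, 67489 ± 12523 for Ins1 and 18009 ± 3767 for Iapp (SD, n = 12). Values per kilobase in the beta-cell line were 133747 ± 25761, 38659 ± 6743 and 17701 ± 2342 (SD, n = 8). The order was the same per kilobase of the longest transcript and of the coding sequence, although the values themselves depend on the length used.

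Loss of Cpeb1 left no called change in Ins1, Ins2 or Iapp in either line. The first question of the design, whether the knockout altered hormone mRNA, was asked in each line, in each sex and as the mean of both sexes. Whole-body line Ins1 lay at 54022, 60438 and 66482 CPM in control females and at 56702, 55297 and 69950 CPM in knockout females. It lay at 87294, 75479.7 and 73620.3 CPM in control males and at 83762, 90718 and 86320 CPM in knockout males. Knockout and control values overlapped in both sexes.

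Ins2 in the whole-body line lay at 92755, 134051 and 162942 CPM in control females and at 130649, 123035 and 159773 CPM in knockout females. Its level in control males was 183387, 159867 and 154317 CPM, and in knockout males 173166, 198477 and 167063 CPM. The lowest of these 12 values was that of control female 1, and the genotypes overlapped in both sexes. Iapp lay at 11305, 15895 and 14606 CPM in control females and at 16540, 13517 and 15137 CPM in knockout females of this line. In males its level was 20252, 19916 and 17481 CPM in controls and 20411, 23007 and 22417 CPM in knockouts. Iapp in males was the 1 case of 12 (3 genes, 2 sexes, 2 lines) in which knockout and control libraries did not overlap. In those libraries 13.3% of all tested genes separated in the same way (12.6% in females, 0.332% with both sexes together). The summed acinar genes also separated those male libraries, and their part in the Iapp values was not tested.

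As the mean of both sexes, the whole-body knockout changed Ins1 by 0.07 (SE 0.09, 95% interval -0.11 to 0.26), Ins2 by 0.10 (SE 0.13, -0.19 to 0.39) and Iapp by 0.15 (SE 0.10, -0.06 to 0.36) on the log2 scale. The edgeR adjusted p-values were 0.883, 0.895 and 0.872, and 0.0327% of the 18359 tested genes were called in this comparison. Of the 3 members, 0 were called, and 0 had an unadjusted p under 0.05. Expressed as folds, the upper ends of these intervals were 1.20 for Ins1, 1.31 for Ins2 and 1.29 for Iapp. Without control female 1 the Ins2 difference was -0.01 instead of 0.10.

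Beta-cell line Ins1 lay at 34079 and 40418.5 CPM in control females and at 30511.5 and 38607 CPM in knockout females. In males of this line its level was 51753 and 44818.5 CPM in controls and 39374 and 48885 CPM in knockouts. The genotypes overlapped in both sexes, as they did for the other 2 genes, while 31.6% of tested genes separated in females, 26% in males and 2.24% with both sexes together. Ins2 lay at 139092 and 162481 CPM in control females, 133879 and 168550 CPM in knockout females, 237914 and 189867 CPM in control males, and 171913 and 200114 CPM in knockout males. Iapp lay at 13103 and 17979 CPM in control females, 14757 and 16385 CPM in knockout females, 18378 and 19199.6 CPM in control males, and 18809 and 19311 CPM in knockout males. The mean knockout effect was -0.12 for Ins1 (SE 0.13, 95% interval -0.41 to 0.18), -0.10 for Ins2 (SE 0.13, -0.39 to 0.20) and 0.01 for Iapp (SE 0.12, -0.26 to 0.28) on the log2 scale. The edgeR adjusted p was 1.00 for each of the 3, with 0.0368% of 16284 tested genes called. By unadjusted p, 0 of the 3 lay under 0.05.

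**Figure D1:**
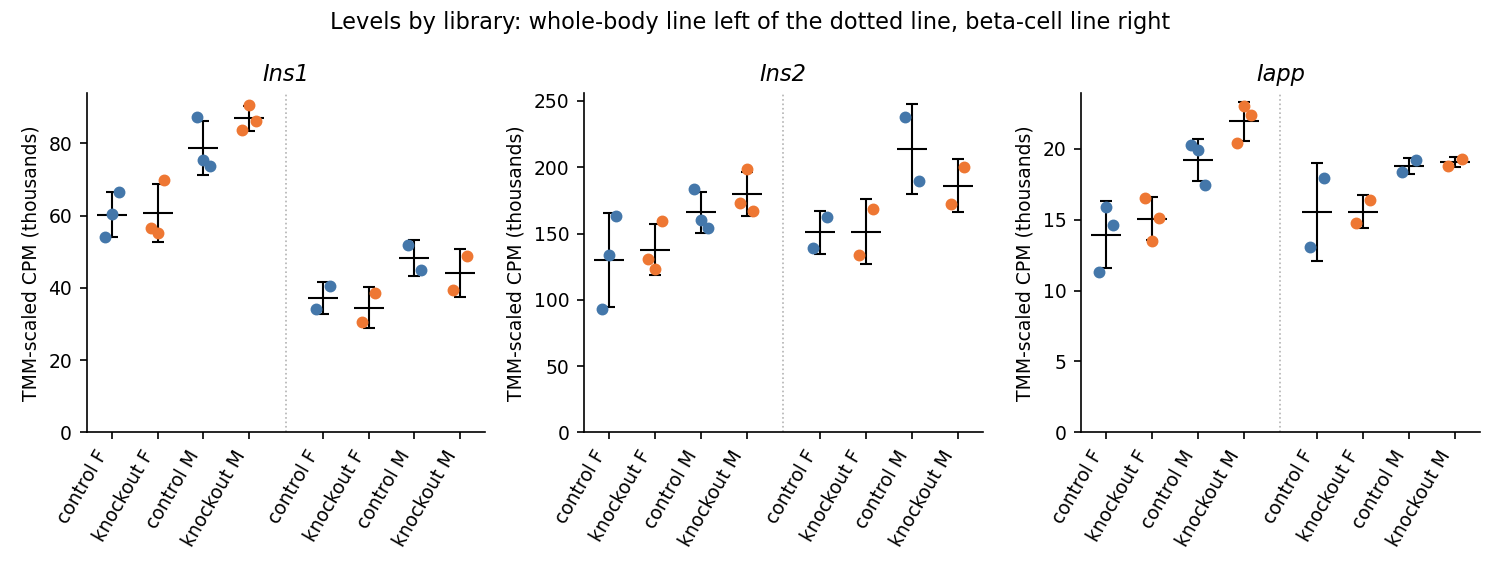
TMM-scaled CPM of Ins1, Ins2 and Iapp in every library, by group. Points are libraries (orange knockout, blue control), bars are means and SDs (n = 3 per whole-body group, n = 2 per beta-cell group), the lines were scaled separately, and whole-body males lie above whole-body females without overlap for Ins1 and Iapp.

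Within a single sex the tests gave the same outcome. Whole-body knockout females differed from control females by 0.01 (Ins1), 0.09 (Ins2) and 0.11 (Iapp) on the log2 scale, with edgeR adjusted p-values of 0.987, 0.866 and 0.738. For whole-body males the differences were 0.14, 0.11 and 0.19 (adjusted p 1.00, 1.00 and 0.983). In those 2 comparisons 0.00545% and 0.0218% of tested genes were called. The beta-cell line gave -0.11, 0.00 and 0.00 in females and -0.13, -0.20 and 0.02 in males, each with an adjusted p of 1.00, where 0.0123% and 0% of tested genes were called. The male minus female knockout effect was 0.13, 0.03 and 0.08 for Ins1, Ins2 and Iapp in the whole-body line (adjusted p 0.824, 0.985 and 0.921) and -0.02, -0.21 and 0.02 in the beta-cell line (adjusted p 1.00 each).

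Ratios within a library need no scaling between libraries. Iapp gave 7.80 ± 0.767 counts (SD, n = 12) per 100 counts of Ins1 and Ins2 together in the whole-body line, ranging from 6.37 to 8.85. The ratio was 8.06 ± 0.887 (SD, n = 8) in the beta-cell line, ranging from 6.34 to 8.98. Neither line separated knockout from control: the log2 difference was 0.06 in the whole-body line (two-sided exact permutation test within sex, p = 0.505) and 0.12 in the beta-cell line (exact p = 0.389). Adjusted over the 10 ratio and share tests both were 0.741. The beta-cell design of 4 against 4 within sex cannot give a p below 0.0556, and the whole-body design cannot go below 0.005.

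The Ins1 to Ins2 count ratio gave no genotype difference past the threshold. In the whole-body line it was 0.463 ± 0.0316 (SD, n = 6) in knockouts and 0.478 ± 0.0576 (SD, n = 6) in controls, a log2 difference of -0.04 (two-sided exact permutation test within sex, p = 0.820). Without control female 1 the difference was 0.03 (exact permutation p = 0.385). Beta-cell libraries had a ratio of 0.233 ± 0.00783 in knockouts and 0.237 ± 0.0139 in controls (SD, n = 4 each), a log2 difference of -0.02 (exact permutation p = 0.667). The sexes of that line differed in sign: females gave -0.11, without overlap (0.228 and 0.229 in knockouts, 0.245 and 0.249 in controls; exact permutation p = 0.333, the smallest that 2 against 2 allows), and males 0.06 with overlap (exact permutation p = 0.667). The share of counts in the 3 genes differed by 3.88 percentage points between knockout and control in the whole-body line (exact permutation p = 0.320) and by -0.876 in the beta-cell line (exact permutation p = 0.611). With totals that leave out Rn18s and Lars2 the whole-body difference was 2.01 points. Without control female 3 it was 6.30 points (exact permutation p = 0.030), and without control female 1 it was 0.55 points (exact permutation p = 0.720).

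Genes that make, fold, process and receive these hormones were described from 6 lists. The lists held transcription factors of the insulin genes, prohormone-processing enzymes, endoplasmic reticulum (ER) folding genes, granule proteins, receptors with peptide-degrading enzymes, and RNA-binding proteins. In the whole-body knockout comparison 0 of the 50 tested list genes were called, where 0.0327% of all tested genes were, and list medians lay between -0.21 (RNA-binding proteins) and 0.07 (granule) on the log2 scale, against 0.02 over all tested genes. The smallest unadjusted p-values outside Cpeb1 belonged to Hsp90b1, an ER chaperone (0.32, SE 0.09), and Scg2, a granule protein (0.41, SE 0.12), whose edgeR adjusted p-values were 0.546 and 0.650. Among the transcription factors Neurod1, which activates the insulin genes, stood at -0.25 (SE 0.18, adjusted p 0.872). Cpeb1 was the only one of 50 called in the beta-cell line, where 0.0368% of all tested genes were. Pcsk1n, an inhibitor of a proinsulin convertase, stood there at -0.36 (SE 0.27, adjusted p 1.00). The granule list had a median of -0.16 there: Chgb and Ptprn, proteins of the granule, stood at -0.27 (SE 0.13) and -0.25 (SE 0.12), and Slc30a8, its zinc transporter, at 0.20 (SE 0.10), each with an adjusted p of 1.00. Of the other RNA-binding proteins there, Cpeb4 stood at 0.27 (SE 0.11, adjusted p 1.00).

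Ins1 and Iapp were higher in male than in female islets of the whole-body line. There Ins1 rose from a median of 58570 CPM in females (lowest 54022, highest 69950, n = 6) to 85041 CPM in males (lowest 73620.3, highest 90718, n = 6). The 2 sexes did not overlap. This was a log2 difference of 0.45 (SE 0.09, 95% interval 0.26 to 0.64; edgeR adjusted p = 0.0167), or 1.37-fold. Iapp rose from a median of 14872 CPM (11305 to 16540) to 20332 CPM (17481 to 23007), again without overlap, by 0.50 (SE 0.10, 0.29 to 0.71; edgeR adjusted p = 0.0173), or 1.42-fold. Ins2 had medians of 132350 CPM (92755 to 162942) in females and 170114 CPM (154317 to 198477) in males. Its sexes overlapped, and its log2 difference of 0.37 (SE 0.13, 0.08 to 0.65) did not pass the test (edgeR adjusted p = 0.126). In this comparison 5.65% of tested genes were called and 5.32% had sexes that did not overlap.

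Sex differences in the beta-cell line lay in the same direction, and edgeR called none of them. DESeq2, which called 694 of the 16284 tested genes in this comparison, called Ins2 (0.41, adjusted p 0.0296). Ins1 had medians of 36343 CPM in females (30511.5 to 40418.5, n = 4) and 46852 CPM in males (39374 to 51753, n = 4). Ins2 had medians of 150787 CPM (133879 to 168550) and 194991 CPM (171913 to 237914), and Iapp of 15571 CPM (13103 to 17979) and 19004 CPM (18378 to 19311). Ins2 and Iapp did not overlap between the sexes, and 10.2% of tested genes separated likewise. The log2 differences were 0.36 for Ins1 (SE 0.13), 0.40 for Ins2 (SE 0.13) and 0.28 for Iapp (SE 0.12), with edgeR adjusted p-values of 0.272, 0.244 and 0.332 and 0.104% of genes called. All 3 had an unadjusted p under 0.05, as did 2323 of the 16284 tested genes.

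**Figure D2:**
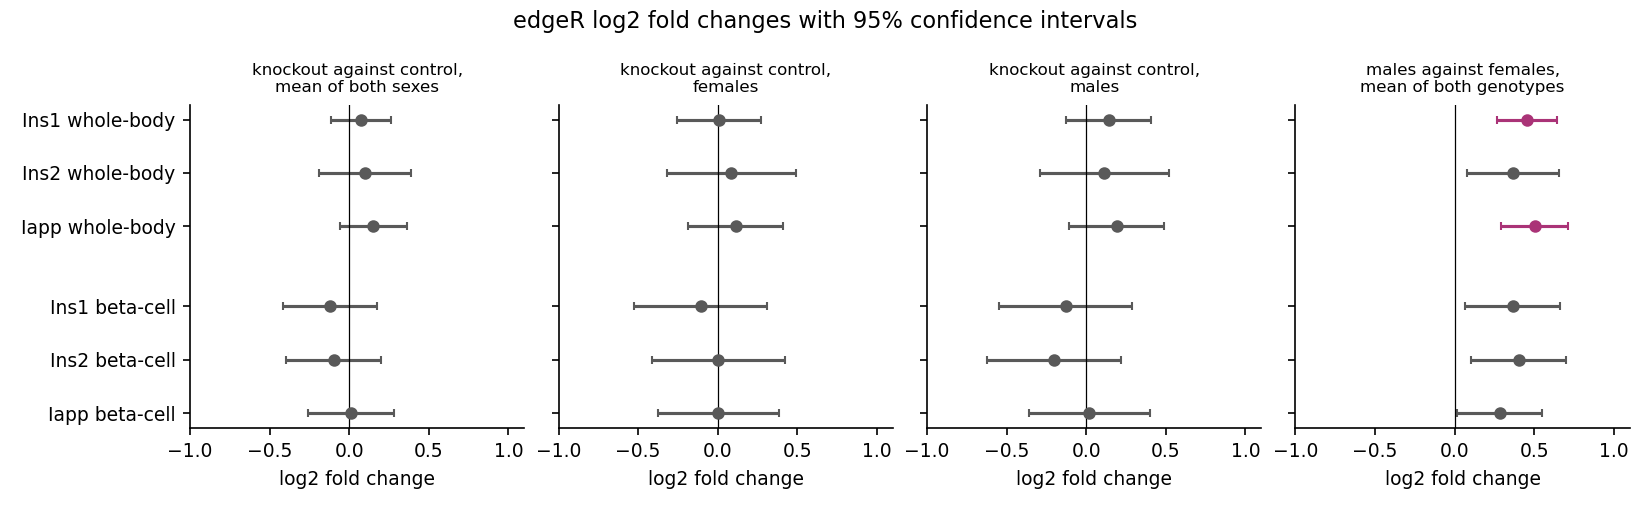
Log2 fold changes from edgeR (x axis) for Ins1, Ins2 and Iapp in the whole-body and beta-cell lines (y axis), with 95% confidence intervals as bars, in 4 comparisons. Purple marks an adjusted p under 0.05, for Ins1 and Iapp in whole-body males against females at 0.45 and 0.50, and the intervals of the knockout comparisons shown include 0.

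The sex calls of Ins1 and Iapp in the whole-body line were lost when certain single libraries were left out, and held without the others. Without knockout female 1, knockout female 2 or control male 1, the adjusted p of Ins1 was 0.0651, 0.0542 and 0.0570, and without knockout female 3 or control male 1 that of Iapp was 0.0518 and 0.0586. The log2 differences stayed between 0.41 and 0.51 for Ins1 and between 0.44 and 0.55 for Iapp when any 1 library was left out. Without control female 3, Ins2 passed the test (0.48, adjusted p 0.0366). With total counts as the only scaling, Ins1 and Iapp gave 0.46 and 0.49 with an adjusted p of 1.00.

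Summed markers of alpha and delta cells lay lower in males, and these sums were not tested. The summed level of 5 alpha cell markers was 41225 to 60660 CPM in whole-body females and 24312 to 42753 CPM in whole-body males, and 67828 to 125411 against 29018 to 40072 CPM in the beta-cell line. The 3 delta cell markers summed to 3538 to 4287 CPM in whole-body females and 1460 to 3327 CPM in males. The 6 beta cell markers summed to 3085 to 4107 CPM in females and 4102 to 6128 CPM in males of that line. In the beta-cell line they summed to 2666 to 4801 CPM in females and 4245 to 5044 CPM in males. These beta cell sums overlapped between the sexes in both lines, as did those of PP (pancreatic polypeptide), acinar, duct, endothelial, immune and mesenchymal markers. The alpha sums overlapped in the whole-body line only. No marker of these lists was at 0 in any library. In bulk islets a larger share of beta cells and more hormone RNA per beta cell cannot be told apart, and the part of cell composition and of age, which differed between the sexes, in these differences was not tested.

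Genes of the folding step rose with the hormone genes in whole-body males. All 6 listed ER folding and translocation genes were called, against 5.65% of all tested genes, with a median of 0.55 on the log2 scale against -0.02 over all tested genes. Hspa5, the main ER chaperone (BiP), rose by 0.73 (SE 0.10, edgeR adjusted p = 0.00432). The disulfide isomerases Pdia6 and P4hb each rose by 0.57, Ssr1 of the translocon by 0.54, the oxidase Ero1b, which drives disulfide formation, by 0.46, and Hsp90b1 by 0.41. Among 6 prohormone-processing genes Cpe, the carboxypeptidase that trims insulin, rose by 0.42 (SE 0.07, adjusted p 0.0123), while Pcsk1n stood at -0.52 (SE 0.23, adjusted p 0.207). The convertase Pcsk1, named after its values were seen, stood at 0.49 (SE 0.13, adjusted p 0.0516). Of 9 granule genes Scg2 rose by 0.71 (SE 0.13) and Scg3 by 0.33 (SE 0.07).

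None of the 12 transcription factors, 10 tested receptor and degradation genes or 7 RNA-binding proteins was called between the sexes in the whole-body line, and with 5.65% of all tested genes called these counts are near the background. Their medians were -0.15, 0.07 and 0.09 on the log2 scale. Igf1r, the receptor of insulin-like growth factor, stood at -0.53 (SE 0.23, adjusted p 0.191). Ramp1, part of an amylin receptor and named after its values were seen, stood at -0.43 (SE 0.11) with the lowest adjusted p of its list, 0.0532. Between the sexes of the beta-cell line 0 of the 50 list genes were called, with 13 of them at an unadjusted p under 0.05, against 2323 of 16284 tested genes. The median of the ER genes there was 0.14 against -0.01 over all tested genes, and Ero1b stood at 0.52 (SE 0.11, adjusted p 0.161). Whether the sex difference itself differed between the lines was not tested.

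**Figure D3:**
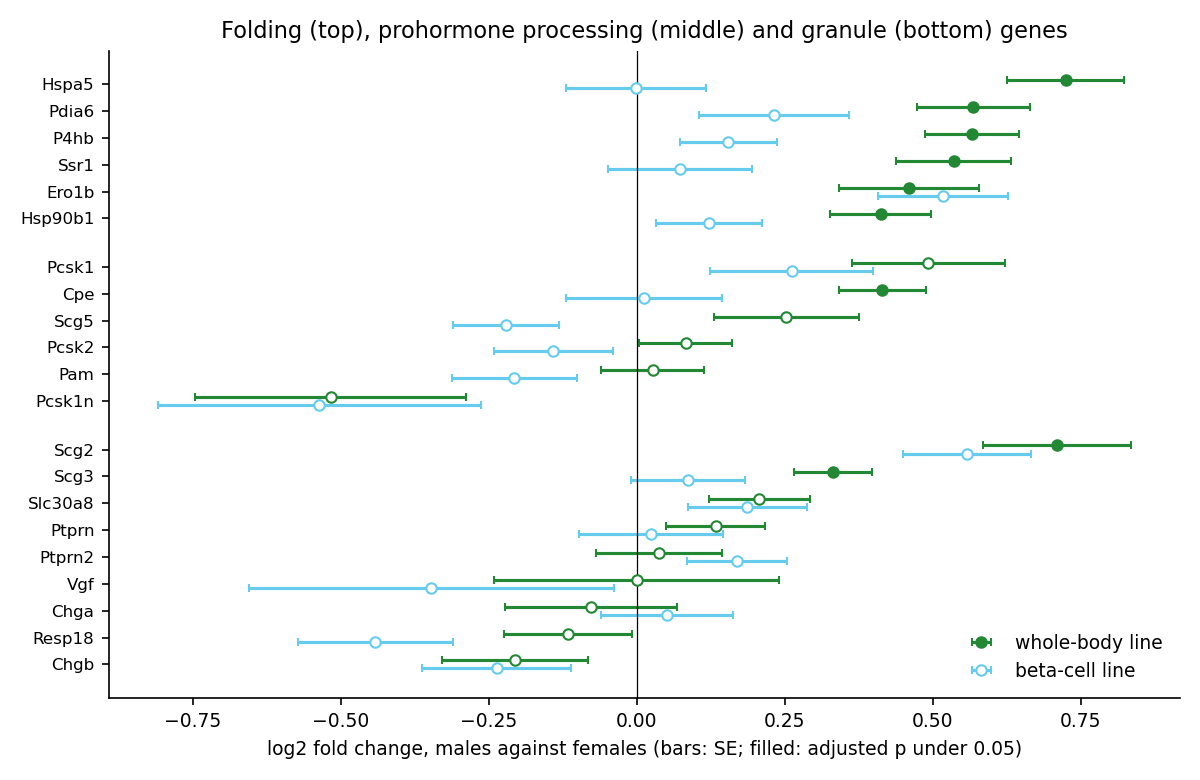
Log2 fold change of males against females (x axis, bars are SE) for ER folding, prohormone-processing and granule genes (y axis), in the whole-body line (green) and the beta-cell line (light blue). Filled points had an edgeR adjusted p under 0.05: the 6 folding genes of the whole-body line are all filled, between 0.41 and 0.73, and no point of the beta-cell line is.

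The promoters of the 2 genes called between the sexes are shown because these genes moved together. RefSeq windows (build GRCm38.p6, 250 bases before to 50 after the annotated start) matched 2 of the 3 members, Ins1 and Iapp; Ins2 was not matched. Capitals mark CATCTG, the core of the E-box that the islet factor NEUROD1 binds with its partner, searched on both strands. Ins1 lies at chr19:52264047-52264346 and Iapp at chr6:142298175-142298474, both on the plus strand.
Ins1: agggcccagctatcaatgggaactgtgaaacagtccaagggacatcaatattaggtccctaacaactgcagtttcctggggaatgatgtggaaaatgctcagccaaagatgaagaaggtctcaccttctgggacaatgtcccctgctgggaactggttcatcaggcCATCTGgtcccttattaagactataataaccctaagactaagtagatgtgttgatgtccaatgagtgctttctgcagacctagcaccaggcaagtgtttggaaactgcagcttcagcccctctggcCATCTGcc
Iapp: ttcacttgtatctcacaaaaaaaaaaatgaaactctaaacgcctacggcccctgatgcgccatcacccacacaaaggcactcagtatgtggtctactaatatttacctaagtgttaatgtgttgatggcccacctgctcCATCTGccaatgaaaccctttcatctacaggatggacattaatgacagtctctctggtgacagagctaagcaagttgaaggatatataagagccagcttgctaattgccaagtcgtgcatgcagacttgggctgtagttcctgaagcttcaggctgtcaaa

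CATCTG occurred 2 times in the Ins1 window and 1 time in the Iapp window, and 17.2% of all 32851 promoter windows held it on either strand. TAAT, the core bound by homeodomain factors such as PDX1, occurred 3 times in Ins1 and 5 times in Iapp, and in 58.0% of all windows. These are matches of letters and not binding sites.

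Because CPEB1 binds U-rich elements, the annotated 3′ UTRs were searched for TTTTAT and TTTTAAT on the transcript strand. The 3′ UTRs of Ins1 and of the first listed transcript of Ins2 held neither run of letters. In 3′ UTR windows as long as that of Ins1, 41.0% of 13899 genes held TTTTAT and 17.2% held TTTTAAT. At the shorter length of Ins2 the shares were 7.72% and 3.03% of 20497 genes. Most genes thus also lacked each of these runs at those lengths. The 3′ UTR of Iapp held TTTTAAT 1 time, starting 11 bases from the transcript's end. Of 14556 genes, 15.4% held it in a 3′ UTR window as long as that of Iapp. The 19 bases at the end of the Iapp transcript, chr6:142303943-142303961 on the plus strand of GRCm38, are shown with that run in capitals because Iapp is the member that holds it.
Iapp: ctaaaataTTTTAATtcta

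The Ins1 to Ins2 count ratio in the beta-cell line was 50.04% of that in the whole-body line. In whole-body females the ratio was 0.582, 0.451 and 0.408 in controls and 0.434, 0.449 and 0.438 in knockouts. In whole-body males it was 0.476, 0.472 and 0.477 in controls and 0.484, 0.457 and 0.517 in knockouts. The highest value, 0.582, belonged to control female 1. In the beta-cell line the ratio was 0.245 and 0.249 in control females, 0.228 and 0.229 in knockout females, 0.218 and 0.236 in control males and 0.229 and 0.244 in knockout males. All 8 beta-cell libraries lay below all 12 whole-body libraries. Rn18s also differed between the lines. It took 0.124% to 0.261% of counts in the beta-cell line and at least 0.962% in the whole-body line. The libraries with most of it, control female 1 (60.5%) and knockout male 3 (7.49%), had the highest ratios, 0.582 and 0.517. The library next in Rn18s, control female 3 (2.20%), had the lowest whole-body ratio, 0.408. The part of Rn18s in the result was not tested.

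The log2 difference between lines was -0.999 (SE 0.04), by a two-sided exact permutation test over all 20 libraries (p = 7.94e-06, the smallest that 125970 arrangements can give). It was -1.01 among control libraries and -0.99 among knockout libraries (exact permutation p = 0.00476 each, the smallest possible). Without control female 1 it was -0.97. The share of insulin counts that came from Ins1 was 29.0% to 36.8% in the whole-body libraries and 17.9% to 19.9% in the beta-cell libraries. Line, batch and the presence of Ins1-Cre coincide in this design and cannot be told apart, and the labels do not say how the Ins1-Cre allele was made or whether it leaves Ins1 intact. Ages also differed, at 98 to 188 days in the whole-body line and 80 to 111 days in the beta-cell line. The part of age in the line difference was not tested.

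Ins1 was also lower relative to Iapp in the beta-cell line. Ins1 counts were 3.43 to 4.78 times Iapp counts in the whole-body line and 2.07 to 2.82 times in the beta-cell line, a log2 difference of -0.79 (SE 0.07) without overlap (exact permutation p = 7.94e-06, adjusted over the 3 ratios 1.19e-05). Ins2 counts were 7.45 to 11.2 times Iapp counts in the whole-body line and 9.04 to 12.9 times in the beta-cell line, a log2 difference of 0.21 (SE 0.08) with overlap (exact permutation p = 0.0149). Among males alone the Ins2 to Iapp ratio did not overlap between the lines (0.32, exact permutation p = 0.00476), and among females it was 0.09 (exact permutation p = 0.457). Relative to the 6 beta cell markers, Ins1 was lower in the beta-cell line against all 6, with a median log2 difference of -1.07 (lowest -1.36, highest -0.52), and 3 of the 6 ratios did not overlap. The medians were -0.08 for Ins2 (-0.36 to 0.48) and -0.28 for Iapp (-0.57 to 0.27), and 0 of their ratios were without overlap. The ratios to Iapp and to the markers were chosen after the data were seen. How many ratios of other genes separate the lines was not counted.

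**Figure D4:**
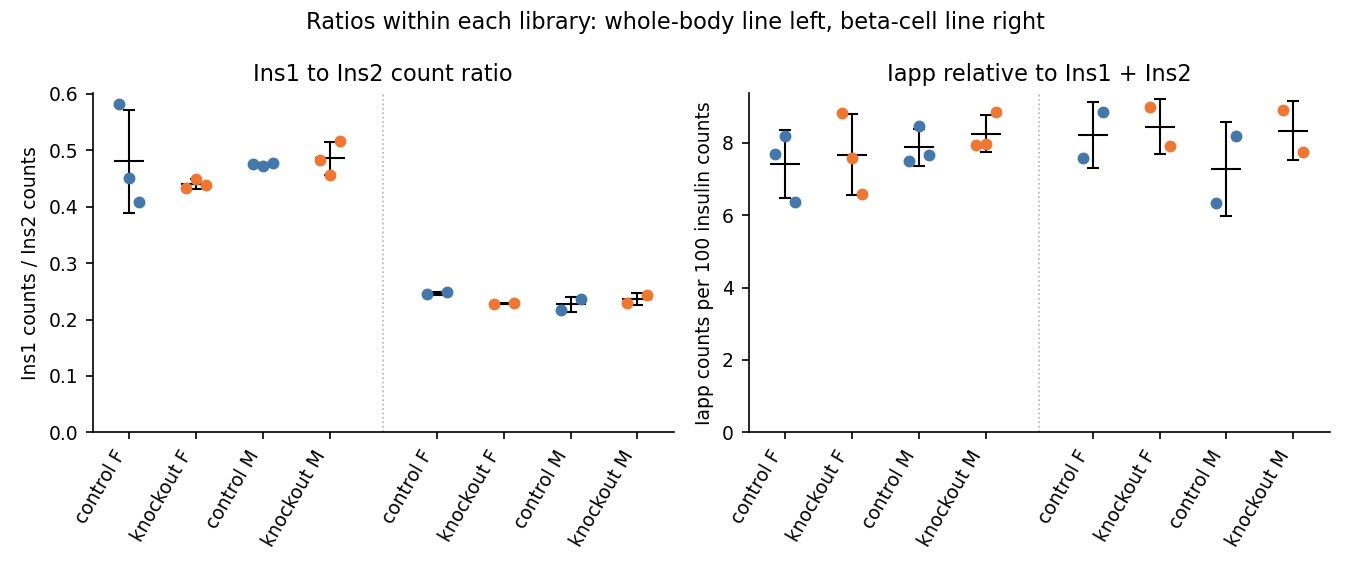
Left, Ins1 counts divided by Ins2 counts; right, Iapp counts per 100 counts of Ins1 and Ins2, in every library by group (orange knockout, blue control; bars are means and SDs, n = 3 or n = 2). The Ins1 to Ins2 ratio lies at 0.408 to 0.582 in the whole-body line and at 0.218 to 0.249 in the beta-cell line, while the Iapp ratio spans 6.34 to 8.98 over both lines.

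Between males and females of the whole-body line the Ins1 to Ins2 ratio differed by 0.07 on the log2 scale over all 12 libraries (two-sided exact permutation test within genotype, p = 0.445). Without control female 1, the 5 other females (0.408 to 0.451) lay below all 6 males (0.457 to 0.517), and the difference was 0.14 (exact permutation p = 0.005, the smallest this design allows). In the beta-cell line the male minus female difference was -0.04 (exact permutation p = 0.611). Age and the ratio gave no correlation past the threshold across the 12 whole-body libraries (Pearson r = 0.33, permutation p = 0.313; Spearman rho = 0.25, permutation p = 0.428). 3 libraries, all of 188 days, tied as farthest from the median age. Without knockout female 1 and control female 1 r was 0.20 (permutation p = 0.580), without knockout female 1 and control female 2 it was 0.70 (permutation p = 0.0225), and without both of those controls it was 0.07 (permutation p = 0.852). It was 0.40 without all 3 (permutation p = 0.294) and 0.01 without control female 1 alone (permutation p = 0.984). The size of r thus depended on which of these 3 libraries were kept. Within the 6 females r was 0.52 (exact permutation p = 0.342) and within the 6 males 0.60 (exact permutation p = 0.225). Over the 8 relations with age computed, the lowest adjusted p (Benjamini-Hochberg, permutation) was 0.180.

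The 3 genes followed each other across libraries. Over the 12 whole-body libraries Pearson's r of log2(CPM + 1) was 0.90 for Ins1 with Ins2, 0.90 for Ins1 with Iapp and 0.85 for Ins2 with Iapp, and over the 8 beta-cell libraries 0.97, 0.80 and 0.78. These are descriptions: the libraries share sex groups and scaling. Among 8412 genes with a mean of at least 10 CPM, the 5 most like Ins1 in the whole-body line were Faf1, Slc35b1, Ica1, Copz1 and Pecr (r 0.96 to 0.95). Their r in the beta-cell line with Ins1 ran from -0.64 (Faf1) to 0.70 (Pecr). Those most like Ins2 were Dnajc19, Ufc1, Ddrgk1, Spg7 and Gm7336 (r 0.98 to 0.96), with 0.84 (Dnajc19) to -0.09 (Gm7336) in the beta-cell line. Nell1, Arhgdig, Spcs1, Ormdl3 and Emc4 were most like Iapp (r 0.97 to 0.96), and their r with it in the beta-cell line lay between 0.28 (Emc4) and 0.83 (Ormdl3).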

How the data were processed

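Islet RNA of 20 mice was poly(A)-selected and sequenced per the labels' protocols. Reads were aligned to mm10 with STAR 2.5.3a and counted with RSEM 1.3.0 per the submitters' processing notes. The deposited values are expected counts from RSEM, unscaled and already whole. The annotation and strand setting are not given in the sources used here. UMI adapters are named per the labels' protocols, but whether reads were collapsed on them is not given in the sources used here.

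Counts were TMM-scaled, filtered with filterByExpr and fitted per line with 1 mean per group in edgeR 4.0.16 (quasi-likelihood, robust), on 18359 genes of the whole-body line and 16284 of the beta-cell line, whose female and male tables were joined on shared genes. Calls required an adjusted p (Benjamini-Hochberg, over all tested genes) under 0.05. Within-library ratios were tested by two-sided exact permutation within sex or genotype (scipy). Replicates of a group were not copies of each other (lowest chi-square over its degrees of freedom, 83.7). The edgeR script was tested on simulated counts.

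Knockout and control mice of the beta-cell line that share a number were equally old, so they can be read as pairs. What was left after removing group means correlated at 0.23 (females) and 0.45 (males). With 2 libraries per group, unlike numbers must give the same values with the sign turned (-0.23 and -0.45), so these correlations cannot show pairing. The fit with the pair as a block was run as an alternative to the main fit, which has no block. In the whole-body line the correlations of same-numbered libraries ran from -0.25 to 0.23, and those libraries were not read as pairs. Named genes were the 3 members, the called genes of each of 6 lists (otherwise from the 3 with the smallest p in the knockout comparison of a line), and the 5 genes most like each member. The members and lists were chosen with earlier results of these data known. RefSeq promoters and GENCODE transcripts (GRCm38, the assembly of mm10) gave sequences and positions. Alternatives were other scalings, no filter, DESeq2, limma-voom, a replicate block and leaving out each library.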

Additional observations from a re-analysis of the deposited data

Results flagged for a closer look

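Several related measures were checked for a value far from the rest among the libraries of each genotype and line, 24 checks in all, and 2 found one, where chance alone gives about 1 in 20. The 3 genes took 5.73% of the counts of whole-body control female 1, the lowest of 6 controls, whose others lay between 22.6% and 30.3%; Rn18s took 60.5% of the counts of this library. In knockout male 2 of the beta-cell line the Ins1 to Ins2 count ratio was 0.244, the highest of 4 knockouts, whose others lay between 0.228 and 0.229. This mouse was 80 days old and the other knockouts of that line were 107 to 111 days old; the part of age was not tested.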

How the results depend on the processing

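The lower Ins1 to Ins2 ratio of the beta-cell line held under every alternative run, between -1.05 (males) and -0.95 (females) on the log2 scale. The split by sex, the age relation without control female 1 and the choices among libraries tied in age were chosen after seeing the data. No alternative called a knockout effect on a member. Of 692 comparisons with an alternative setting over 48 results, 614 were counted as the same and 55 as changed in sign. The same meant an unchanged direction and call. For levels per kilobase and for permutation tests that could not reach p under 0.05, it meant a value less than an SD from the main one. A change of sign in those tests was not counted. Where the cause is not given, the cause was not tested.

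Between the sexes of the whole-body line, Ins1 lost its call with total counts only (0.46) and without the filter on low counts (0.46, adjusted p 0.0615), and Iapp with total counts only (0.49). DESeq2 called Ins2 in the whole-body line (0.36, adjusted p 0.0469) and in the beta-cell line (0.41, adjusted p 0.0296). Between the sexes it called 2660 of 18359 tested genes in the whole-body line and 694 of 16284 in the beta-cell line. With total counts only the male minus female knockout effect in the whole-body line became -0.33 (Ins1), -0.36 (Ins2) and -0.36 (Iapp), while the median of all genes went from 0.03 to -0.47, and that of Ins1 in the beta-cell line became 0.0029. Upper-quartile scaling turned this effect to -0.044 (Ins2) and -0.0012 (Iapp) in the whole-body line, and limma-voom to -0.00056 for Ins2. In beta-cell knockout females, Ins2 was -0.0014 with RLE scaling, -0.0014 with DESeq2, -0.013 with upper-quartile scaling and -0.0092 with limma-voom, and Iapp was -0.0023, -0.0023 and -0.015 with the first 3.

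The replicate block could be fitted for the knockout comparisons, not for males against females, and called no member there: the whole-body knockout effect on Iapp was 0.16 (edgeR adjusted p 0.899), the beta-cell effect on Ins1 -0.12 (edgeR adjusted p 0.835), and Ins2 in beta-cell females -0.0011. In the whole-body line the correlations of same-numbered libraries ran from -0.25 to 0.23. Of these, knockout female 1 and control female 1 were both 188 days old. Knockout female 1 correlated at 0.51 with control female 2, also 188 days old, and at -0.51 with control female 3, 109 days old. What same-numbered whole-body libraries share is not known.

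With the age relation, leaving out knockout female 1 and control female 2 gave r = 0.70 (permutation p = 0.0225). Leaving out 1 library at a time gave these ranges where a direction or call changed or the value moved by much. In the whole-body line the log2 Ins1 to Ins2 difference ran from -0.094 to 0.034 between genotypes and from 0.015 to 0.14 between sexes, and the share of the 3 genes differed between genotypes by 0.55 points without control female 1 to 6.30 points without control female 3 (exact permutation p = 0.030). Its knockout effect ran from 0.024 to 0.13 for Ins1 and from -0.0077 to 0.22 for Ins2 over both sexes, and in females from -0.074 to 0.14 (Ins1), -0.11 to 0.34 (Ins2) and -0.012 to 0.24 (Iapp). Its male minus female knockout effect ran from -0.023 to 0.21, -0.25 to 0.20 and -0.066 to 0.18. Its sex difference ran from 0.41 to 0.51, 0.27 to 0.48 and 0.44 to 0.55. In the beta-cell line an arm is left with 1 library, assumed to vary like the other groups. The knockout effect there ran from -0.21 to -0.045 for Ins1, -0.19 to -0.013 for Ins2 and -0.10 to 0.13 for Iapp over both sexes, in females from -0.29 to 0.050 (Ins1), -0.17 to 0.16 (Ins2) and -0.21 to 0.25 (Iapp), and in males from -0.32 to 0.018 (Ins1), -0.36 to -0.030 (Ins2) and -0.025 to 0.053 (Iapp). The male minus female effect ran from -0.21 to 0.16 (Ins1) and -0.23 to 0.21 (Iapp). Between genotypes of that line the log2 Ins1 to Ins2 difference ran from -0.054 to 0.0046. The share of the 3 genes differed there by -2.39 to 0.64 points.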
